A study of Mus musculus with 13 samples.

Results

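The subject is a list of 52 nuclear genes that encode subunits of respiratory chain complexes I to IV, chosen by gene name and not by any measured value, among the 19838 genes counted in each library. Complex I had 33 of them, complex II 4, complex III 9 and complex IV 6, with Ndufa4 placed in complex IV, where its protein is now assigned, although its name comes from complex I. Total RNA from aorta and gastrocnemius muscle was read with a mouse transcriptome primer pool (AmpliSeq) on an Ion Torrent sequencer, so each gene was counted through a short amplicon. All 13 libraries came from mice aged 88 weeks on an FVBxC57BL/6 background, and every mouse carried 1 Rosa26-rtTA allele, the transactivator that drives tetracycline-responsive genes. The control group, called Rosa26, had the genotype GFP-FOXM1dNdK-/-Rosa26-rtTAtg/+ (4 aorta and 4 muscle libraries). The second group, called dNdK, had the genotype GFP-FOXM1dNdKtg/+Rosa26-rtTAtg/+ and so also carried a GFP-tagged FOXM1-dNdK transgene (2 aorta and 3 muscle libraries). The labels used here give neither sex nor doxycycline treatment, and no label names the animal behind a library. The design compared the 2 genotypes within each tissue, and the series title ties raised FOXM1 expression to a delay of ageing.

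Complex I takes electrons from NADH and complex II, the succinate dehydrogenase of the citric acid cycle, takes them from succinate. Both pass them through ubiquinone to complex III, which reduces cytochrome c, and complex IV hands them to oxygen. Complexes I, III and IV pump protons and also contain subunits made from mitochondrial DNA, whereas all subunits of complex II are nuclear. Brown fat and oxidative muscle fibres are known for many mitochondria. NRF-1, the ETS factor GABP, the oestrogen-related receptors (ERR) and YY1 are known to act on promoters of nuclear respiratory genes.

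The RefSeq promoter table (build GRCm38.p6) held 43 of the 52 members, and the 250 bases before each start were searched on both strands for 4 sets of letters. The NRF-1 letters GCGCNTGCG were found before 10 of the 43 members (23.26%) and before 5.28% of all 27025 promoters of that length. The GABP letters CCGGAAG were found before 7 members (16.28%) and 7.14% of all promoters. The ERR letters AAGGTCA were found before 3 members (6.98%) and 4.05% of all promoters, and the YY1 letters AAGATGGC before 0 members and 1.58% of all promoters. Matches of different motifs overlapped in 0 members. The NRF-1 matches lay before 8 of 30 complex I and 2 of 3 complex II members, and before 0 of 5 members of each of complexes III and IV. A match is a run of letters and no evidence of binding. The 5 sequences shown are the last 100 bases before the start of members that differed between the tissues and held a match there, with at least 1 from each complex. They are read 5′ to 3′ along the gene, which lies on the minus strand for all 5, and capitals mark the matches. Their positions are chr17:24724424-24724523 (Ndufb10), chr13:74350241-74350340 (Sdha), chr9:50603850-50603949 (Sdhd), chr10:80406822-80406921 (Uqcr11) and chr7:30626115-30626214 (Cox6b1).
Ndufb10: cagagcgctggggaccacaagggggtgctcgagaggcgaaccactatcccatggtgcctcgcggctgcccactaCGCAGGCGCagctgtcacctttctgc
Sdha: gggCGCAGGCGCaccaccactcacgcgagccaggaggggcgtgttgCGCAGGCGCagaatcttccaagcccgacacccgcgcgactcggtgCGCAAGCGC
Sdhd: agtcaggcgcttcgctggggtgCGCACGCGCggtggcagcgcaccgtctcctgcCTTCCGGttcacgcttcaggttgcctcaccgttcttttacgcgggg
Uqcr11: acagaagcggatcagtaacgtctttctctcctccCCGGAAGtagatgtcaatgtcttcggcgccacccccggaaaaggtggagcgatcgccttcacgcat
Cox6b1: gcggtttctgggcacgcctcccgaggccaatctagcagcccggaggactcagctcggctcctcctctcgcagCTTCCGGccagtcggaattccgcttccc
The upstream bases of Sdha, the flavoprotein of complex II, held 3 NRF-1 matches, those of Sdhd 1 NRF-1 and 1 GABP match, those of Ndufb10 1 NRF-1 match, and those of Uqcr11 and Cox6b1 1 GABP match each.

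The libraries held 3919526 to 13683952 gene counts, and 3 counts, the limit that a count of 0 allows, equalled 0.219 to 0.765 CPM, the gene count scaled to a common library total. No label mentions molecular identifiers, so this limit covers counting error only. Since no label says that libraries came from separate animals, p-values measure only the spread between these samples. Foxm1 itself had 2 and 5 counts in the dNdK aorta libraries against 2 to 24 in Rosa26 aorta, and 0 to 3 counts in all muscle libraries. The labels do not say which part or species of FOXM1 the transgene encodes, so these counts check no label. The tissue labelled aorta held high levels of fat markers: Ucp1, the uncoupling protein of brown fat, was at 5525 to 10148 CPM in the 6 aorta libraries and at 0.269 to 701 CPM in the 7 muscle libraries. Summed brown fat markers (9 genes) ranged from 15843 to 20712 CPM in aorta and from 1662 to 3656 CPM in muscle, where Cox8b (1298 to 2297 CPM) and Cox7a1 (362 to 578 CPM) made up most of the sum. Zic1 and Fabp3 of that list were at or near 0 in all 13 libraries. Summed smooth muscle markers (8 genes) ranged from 278 to 625 CPM in aorta and from 195 to 298 CPM in muscle, with Tagln at or near 0 in all libraries. Heart muscle markers (8 genes) together reached 1222 to 2700 CPM in 3 aorta libraries (dNdK 2 and the first pair of Rosa26), against 2.04 to 9.92 CPM in the remaining 3. Nppa and Myl4 of that list were at or near 0 in all 13 libraries (at most 1.28 and 0.323 CPM). Sln of that list was also at 10.5 to 709 CPM in the 7 muscle libraries. Muscle dNdK 3 held 11921 CPM of adipocyte markers (7 genes), against 268 to 831 CPM in the other 6 muscle libraries. Brown fat markers besides Ucp1 were also higher there: Cidea at 275, Otop1 at 71.1 and Elovl3 at 38.1 CPM. In the other 6 these were at most 2.07, 0.883 and 0.147 CPM. Dio2 differed little, at 5.04 CPM against at most 4.80 CPM.

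A set of 6 libraries stood apart in the strand of their reads, a split set at 48% after the data were seen. Aorta Rosa26 3 and 4, muscle Rosa26 1 and 4, and muscle dNdK 1 and 3 had 46.3% to 47.5% of reads on the first strand, against 48.4% to 49.3% in the other 7. An amplicon is normally read from both ends. In these 6 libraries 6.90% to 22.5% of genes with at least 50 reads were 1-sided, meaning under 25% or over 75% of reads on the first strand, against 0.372% to 2.08% in the other 7. Between 6 and 11 members were 1-sided in each of the 6, and 0 or 1 in the others. Both aorta libraries of this kind were Rosa26, and the 2 other Rosa26 and both dNdK aorta libraries were not of it. The numbers in the deposited names put Rosa26 numbers 50 and 30 in this class in both tissues, while number 142 was in it in muscle and not in aorta. The cause was not tested, and the results by tissue and genotype are also given without them or with a covariate for them. Aorta Rosa26 3 and 4 also had few heart markers (9.92 and 2.04 CPM), against 2688 and 1222 CPM in aorta Rosa26 1 and 2. Within aorta Rosa26 the 2 splits therefore cannot be told apart, also where these libraries are left out.

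Cox5b, a nuclear subunit of complex IV, moved most with this split. It lies at chr1:36691487-36693388 (Entrez 12859). In aorta it was at 1730.4, 2753, 228 and 265 CPM in Rosa26 1 to 4 and at 1853 and 1762 CPM in dNdK 1 and 2. In muscle it was at 125, 767, 943 and 158 CPM in Rosa26 1 to 4 and at 97.8, 786 and 299.8 CPM in dNdK 1 to 3. Every library under 48% lay below every library over 48% of the same tissue, on both genotypes. Reads on both strands were few in the low aorta libraries: first-strand levels were 831 and 1262 CPM in Rosa26 1 and 2 against 139 and 148 CPM in Rosa26 3 and 4, and second-strand levels 896 and 1486 against 89.4 and 116 CPM.

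Sdhc, a membrane anchor of complex II, and Uqcrb, a small subunit of complex III, instead lost reads from 1 strand. First-strand levels of Sdhc were 495 and 407 CPM in aorta Rosa26 1 and 2 against 84.7 and 73.4 CPM in Rosa26 3 and 4, while its second-strand levels were 567 and 412 against 836 and 803 CPM. First-strand levels of Uqcrb were 646 and 683 against 84.2 and 88.4 CPM, and its second-strand levels 619 and 686 against 529 and 679 CPM. For Sdhc the second strand was therefore higher where the first was low, and the sum of both changed little. Of the 46 members tested, 13 were 1-sided in at least 1 library: Ndufs1, Ndufa9, Ndufa11, Ndufa13, Ndufb3, Ndufc2, Ndufs4, Ndufs6, Sdhc, Uqcrc1, Uqcrb, Uqcrh and Uqcr11. Ndufs1, the largest core subunit of complex I, was 1-sided only in muscle dNdK 2, with 6.16% of reads on the first strand against 33.4% to 53.8% in the other 12 libraries.

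The member differences between the 2 kinds of Rosa26 library were correlated between the 2 tissues. In aorta the 2 kinds also differed in heart markers, as given above. Of the 46 members, 20 had a lower mean log2 CPM in the libraries under 48% in both tissues, 12 had a higher one in both, and 14 had opposite signs. Cox5b differed by -3.08 in aorta and -2.54 in muscle on the log2 scale, Ndufa13 by -1.03 and -0.99, Ndufs4 by -0.97 and -1.05, Uqcrb by -0.87 and -0.96, and Sdhb by -0.75 and -1.09. Ndufa13, Ndufs4 and Sdhb are a membrane-arm subunit of complex I, an accessory subunit near its NADH end and the iron-sulphur subunit of complex II. Across the 46 genes, which share libraries and are not replicates, the aorta and muscle differences had a Pearson correlation of 0.926 (0.862 without Cox5b, and 0.925 over the 33 members never 1-sided). It was 0.487 over the 7674 genes with a mean log2 CPM above 3, which were not matched to the members for level. The Spearman correlation was 0.847 over the 46 members and 0.53 over the 7674 genes.

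**Figure D1:**
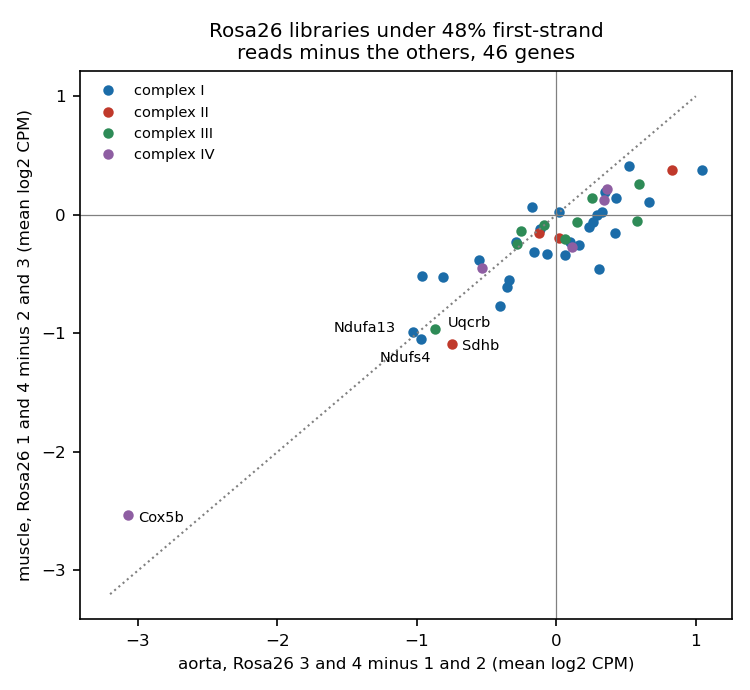
Mean log2 CPM of the Rosa26 libraries under 48% first-strand reads minus that of the other Rosa26 libraries, for each of 46 members, in aorta (x axis) and muscle (y axis), coloured by complex, with a dotted line of equality. Cox5b lies at -3.08 and -2.54, and 20 of the 46 points lie below 0 on both axes.

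Of the 52 members, 46 passed the low-count filter of edgeR in every comparison. The other 6 did not: Ndufb4 and Ndufs5 had 0 counts in all 13 libraries, Ndufab1 and Cox7c had 1 count in all, Ndufa12 had 8 and Ndufa7 18. The highest of these levels was 0.403 CPM, for Ndufa7, and no comparison was made for these 6 genes. All but Ndufa7 shared 60-base stretches of their transcripts exactly with an annotated pseudogene, over 36.29% of the stretches for Ndufb4, 28.34% for Ndufs5, 24.55% for Ndufa12, 11.73% for Ndufab1 and 9.23% for Cox7c. Of the 46 members tested, 11 shared such stretches: 37.61% for Uqcrb, 31.41% for Ndufs3, 12.67% for Cox6c, 6.99% for Uqcr11, 5.94% for Uqcrh, 5.4% for Ndufb3 and 0.17% to 4.15% for Ndufs6, Ndufa11, Ndufc1, Ndufa13 and Cox5a. Their counts are less certain. The positions of the amplicons were not used here, and the part of shared sequence in the low counts was not tested.

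Members took 5.87% to 6.33% of all gene counts in the 6 aorta libraries and 2.25% to 3.09% in the 7 muscle libraries, so the tissues did not overlap in this share. Fewer cells of a type and less RNA per cell cannot be told apart in such bulk samples. Within groups the ratio of the highest to the lowest library had a median over members of 1.497 in aorta Rosa26, 1.39 in muscle Rosa26 and 1.48 in muscle dNdK. Cox5b had the widest ratio in all 3, at 12.1, 7.52 and 8.04, and 12, 7 and 7 members exceeded a ratio of 2.

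Between the tissues of Rosa26 mice, 14 of the 46 members were called higher in aorta and 1 lower (edgeR quasi-likelihood test, Benjamini-Hochberg adjusted p under 0.05, 4 against 4 libraries). Of all 11058 genes tested, 31% were called higher and 27.5% lower, 58.4% in either direction, so the share of members called higher was near that background. At an unadjusted p under 0.05 there were 18 members, against 62.5% of all genes. Scaled levels of all 4 aorta libraries lay above all 4 muscle libraries for 15 members (26.9% of all genes), and plain CPM did so for 39 members (50.7%). Plain CPM lay wholly lower in aorta for 0 members (11.1%). Estimates lay above 0 for 34 of 46 members, against 52.5% of all genes. The member median was a log2 fold change of 0.35, against 0.08 for all genes. Complexes II and III had the higher medians (0.82 over 4 genes and 0.57 over 9), followed by complex IV (0.42 over 5) and complex I (0.14 over 28). By complex, 4 of 28 members of complex I were called higher and 1 lower, 2 of 4 of complex II, 6 of 9 of complex III and 2 of 5 of complex IV higher. These fold changes are on the scale of edgeR's trimmed mean of M values (TMM), which is set by the bulk of genes. Plain CPM gave larger differences, and 9 fast-fibre genes together took 223420 to 232145 CPM of Rosa26 muscle and 13.9 to 21.6 CPM of Rosa26 aorta. With library size as the only scaling, 41 of 46 members were called higher and 0 lower (median 1.215), while the median of all genes was 0.953. Of all 11058 genes, 6241 were called higher and 1303 lower in that setting. With upper-quartile scaling 24 members were called higher and 0 lower (median 0.602, all genes 0.333), beside 4142 of all genes higher and 2404 lower. The member median exceeded that of all genes by 0.269 with TMM and by 0.262 to 0.273 with the other scalings, which shift all genes nearly alike. Other settings moved this excess more: it was 0.047 with no filter on low counts (the same 46 members against 16620 genes), 0.128 and 0.139 without muscle Rosa26 1 or 4, 0.162 without aorta Rosa26 4 and 0.623 in the dNdK libraries. The share of all calls that were higher was 53% with TMM and 82.7% with library size alone.

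**Figure D2:**
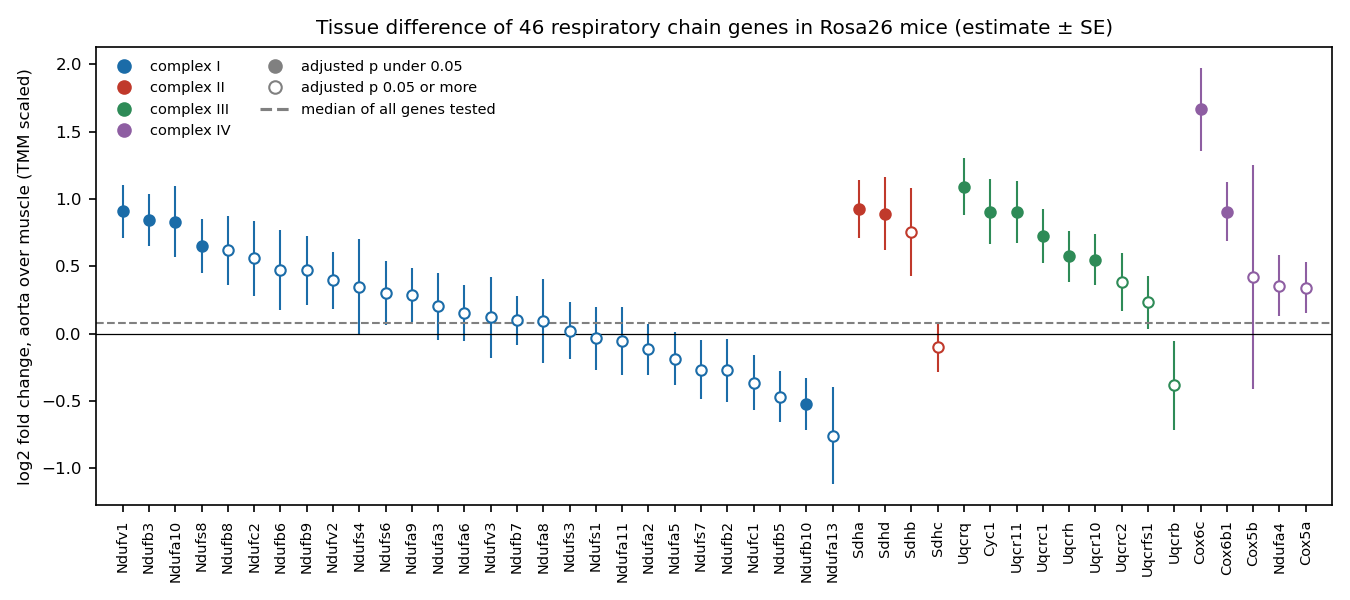
Log2 fold change of aorta over muscle in Rosa26 mice (TMM scaled, edgeR estimate with its SE, 4 against 4 libraries) for the 46 members tested, ordered within complexes I to IV. Filled points (15) had an adjusted p under 0.05, and the dashed line is the median of all 11058 genes; with library size as the only scaling Ndufa13, Ndufb10 and Sdhc lie above 0.

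In complex I the members called higher were Ndufv1, Ndufb3, Ndufa10 and Ndufs8. The gene Ndufv1 (Entrez 17995) lies at chr19:4007499-4012755 in GRCm38.p6. Ndufv1, the subunit that binds NADH, was at 1873, 2085, 1935 and 1869 CPM in aorta Rosa26 1 to 4 and at 490.0, 481, 672 and 625 CPM in muscle Rosa26 1 to 4. The groups did not overlap, and its TMM-scaled log2 fold change was 0.91 (SE 0.20, edgeR adjusted p = 0.0026). Ndufb3, an accessory subunit of the membrane arm, was at 822, 767, 740.0 and 882 CPM in aorta and 232, 259.9, 285 and 213 CPM in muscle, again without overlap, with 0.84 (SE 0.19, edgeR adjusted p = 0.00353). Ndufs8, an iron-sulphur core subunit, had 0.65 (SE 0.20, edgeR adjusted p = 0.0173), and Ndufa10, an accessory subunit, had 0.83 (SE 0.27, edgeR adjusted p = 0.0201). Without the libraries under 48%, the log2 fold change of Ndufs8 was 0.31 (edgeR adjusted p = 0.239).

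In complex I, 2 members lay lower in aorta in every library after scaling, Ndufb10 and Ndufb5, against 25.9% of all genes with such a gap. Ndufb10, a membrane-arm accessory subunit, was at 635, 644, 737 and 753 CPM in aorta and 564, 485, 638 and 505 CPM in muscle, so that plain CPM of the tissues overlapped. Its TMM-scaled log2 fold change was -0.52 (SE 0.20, edgeR adjusted p = 0.0408), but 0.34 with library size as the only scaling. Ndufa13 had the lowest estimate of all members, -0.76 (SE 0.36, edgeR adjusted p = 0.0948). It was at 536, 726, 304 and 277 CPM in aorta and 219, 510.1, 622 and 339 CPM in muscle, lowest in both tissues in the libraries under 48%. With a covariate for the 2 kinds of library its log2 fold change was -0.76 (edgeR adjusted p = 0.00485), and with library size as the only scaling it was 0.13.

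In complex II, Sdha and Sdhd were called higher in aorta. The gene Sdha (Entrez 66945) lies at chr13:74322255-74350240 in GRCm38.p6. Sdha was at 3803, 2737, 2783 and 2837 CPM in aorta Rosa26 1 to 4 and 673, 949.8, 923 and 973 CPM in muscle Rosa26 1 to 4, without overlap, with 0.93 (SE 0.22, edgeR adjusted p = 0.00409). Sdhd, a membrane anchor, was at 1119.7, 954, 1788 and 1712 CPM and 445, 367, 374 and 478 CPM, with 0.89 (SE 0.27, edgeR adjusted p = 0.0165). It was highest in both tissues in the libraries under 48%, and without those libraries its log2 fold change was 0.57 (edgeR adjusted p = 0.0556). Sdhb was at 1781, 2215, 1212 and 1043 CPM in aorta and 334, 688, 701 and 295 CPM in muscle. Its estimate missed the threshold, at 0.75 (SE 0.33, edgeR adjusted p = 0.0712), and passed it with the covariate for the kind of library (0.81, edgeR adjusted p = 0.00185) and with the block on name numbers (0.83, adjusted p = 0.0249). Sdhc was at 1063, 821, 922 and 877 CPM and 497, 599, 582 and 492 CPM, higher in every aorta library in plain CPM, but its scaled estimate was -0.099 (SE 0.18, edgeR adjusted p = 0.663), turning to 0.76 with library size as the only scaling.

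Complex III had the most calls for its size, 6 of 9. The gene Uqcrq (Entrez 22272) lies at chr11:53427922-53430831 in GRCm38.p6. Uqcrq, a small subunit of the complex, was at 1670.2, 1667, 1748 and 2051 CPM in aorta and 483, 381, 524 and 462 CPM in muscle, without overlap, with 1.09 (SE 0.21, edgeR adjusted p = 0.00137). Uqcr11, a small accessory subunit, was at 1454, 1959.8, 2806 and 2055 CPM and 637, 587, 671 and 532 CPM, with 0.90 (SE 0.23, edgeR adjusted p = 0.0071). Cyc1, the haem protein that reduces cytochrome c, had 0.91 (SE 0.24, edgeR adjusted p = 0.00872), and Uqcrc1, a core protein, had 0.72 (SE 0.20, edgeR adjusted p = 0.00945). Uqcrh, the hinge protein, and Uqcr10 were called with smaller estimates of 0.57 (SE 0.19, edgeR adjusted p = 0.0249) and 0.55 (SE 0.19, edgeR adjusted p = 0.028). Without the libraries under 48%, Uqcr11, Uqcrc1, Uqcrh and Uqcr10 lost their calls, at log2 fold changes of 0.52, 0.54, 0.55 and 0.40 (edgeR adjusted p from 0.0729 to 0.194). Uqcrfs1, the Rieske iron-sulphur protein, and Uqcrb were not called.

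In complex IV, Cox6c had the largest estimate of the module and the lowest counts of any member tested. It lies at chr15:35931976-35938246 (Entrez 12864). It was at 37.3, 37.3, 18 and 32.9 CPM in aorta Rosa26 1 to 4 and 3.36, 5.78, 6.78 and 5.69 CPM in muscle Rosa26 1 to 4, without overlap, with 1.67 (SE 0.31, edgeR adjusted p = 0.000999). Cox6b1, which links the 2 monomers of cytochrome c oxidase, was at 3497, 4027, 4160.5 and 4904 CPM and 1288, 1083, 1314 and 1206 CPM, without overlap, with 0.91 (SE 0.22, edgeR adjusted p = 0.00497). Cox5b was not called, with 0.42 (SE 0.83, edgeR adjusted p = 0.686), and without aorta Rosa26 1 and 2 its estimate was -1.83 (edgeR adjusted p = 0.0693). Cox5a, a subunit on the matrix face, and Ndufa4 were also not called.

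Leaving out each of the 8 Rosa26 libraries in turn kept 9 of the 15 calls each time: Cox6c, Uqcrq, Ndufv1, Ndufb3, Sdha, Cox6b1, Uqcr11, Cyc1 and Uqcrc1. Sdhd missed the threshold without muscle Rosa26 2 or 3 (highest edgeR adjusted p = 0.0532), Ndufs8 without muscle Rosa26 4 (0.0615), and Ndufa10 without aorta Rosa26 4 or muscle Rosa26 2 or 3 (0.0667). Uqcrh missed it without aorta Rosa26 1 or muscle Rosa26 1, 2 or 4 (highest edgeR adjusted p = 0.0834). Uqcr10 missed it without aorta Rosa26 1 or 4 or any 1 muscle library (0.0825), and Ndufb10 without aorta Rosa26 1, 2 or 3 or muscle Rosa26 1, 3 or 4 (0.102). With a covariate for the libraries under 48%, all 15 calls were kept. In that fit 16 members were called higher and 3 lower, beside 3751 and 3494 of all 11058 genes. Without the libraries under 48%, 9 of the 15 calls were kept, with 2 libraries in each tissue. There 9 members in all were called higher and 3 lower, beside 3337 and 3037 of all 11683 genes. In the dNdK libraries (2 aorta against 3 muscle) only Cox6c was called, at a log2 fold change of 2.29 (edgeR adjusted p = 0.0301), and over all genes 597 were called higher and 1204 lower of 11426. The 14 members called higher in Rosa26 had estimates above 0 there, but that of Uqcr11 was 0.034 (edgeR adjusted p = 0.963). The level of fat markers and fast-fibre genes differed between the tissues as given above, and their part in the member differences was not tested.

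**Figure D3:**
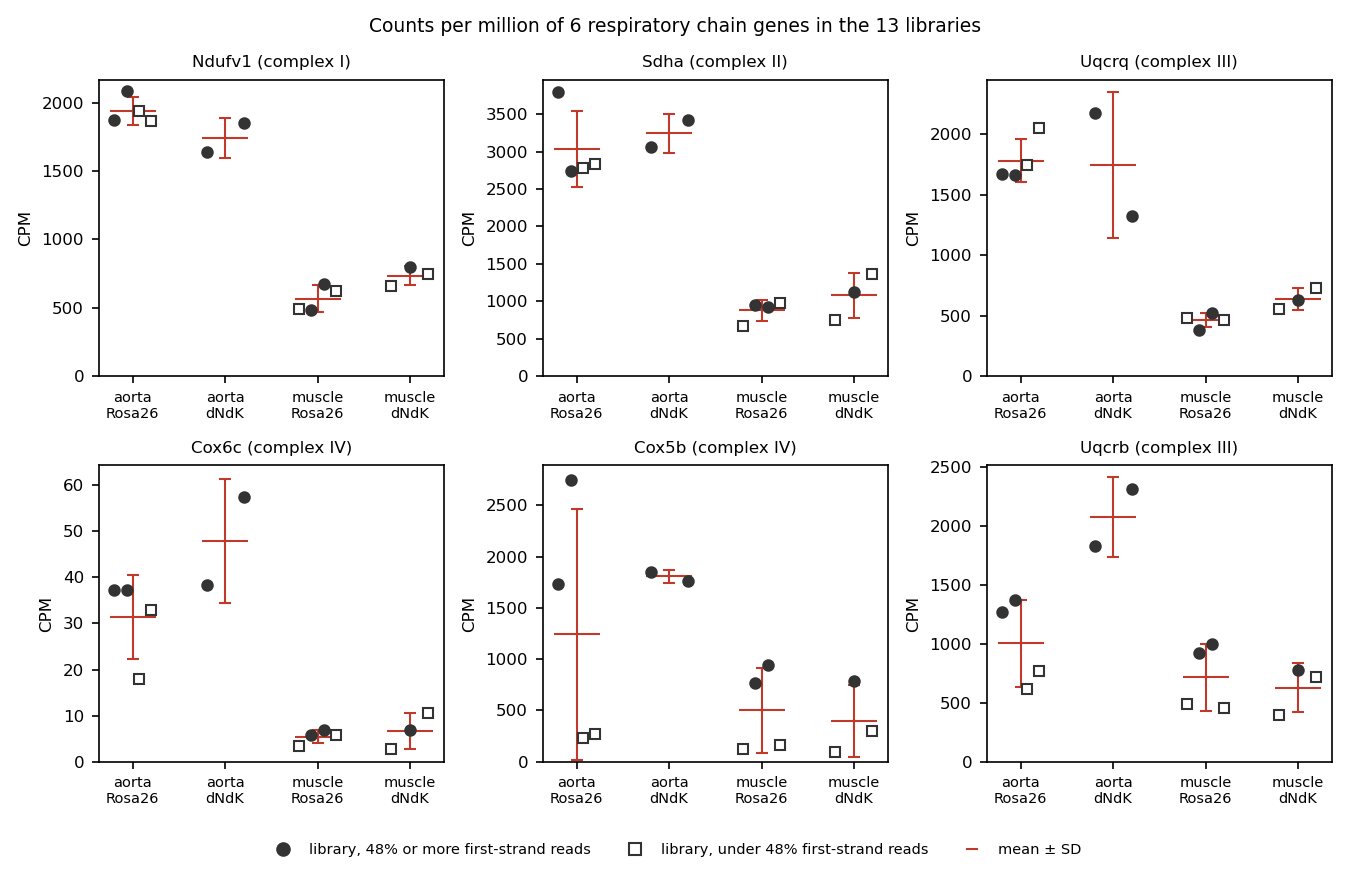
CPM of 6 members in each of the 13 libraries by tissue and genotype, with group means and SD; open squares are the 6 libraries under 48% first-strand reads. Cox5b is at 97.8 to 299.8 CPM in the 6 open squares and at 767 to 2753 CPM in the other 7 libraries, while Ndufv1, Sdha, Uqcrq and Cox6c separate by tissue.

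In aorta, 0 of the 46 members were called between dNdK and Rosa26 (edgeR, 2 against 4 libraries), against 0.00839% of 11920 genes (1 gene, called higher). DESeq2 also called 0 members. Among the members, 2 had an unadjusted p under 0.05, Uqcrb and Sdhc, against 5.98% of all genes. Most estimates nevertheless lay above 0: 37 of 46, against 45.8% of all genes, with a median of 0.23 against -0.05. Most lists of related mitochondrial genes, given below, were skewed in the same direction. Members are measured in the same libraries, so their signs are not independent. The median was 0.26 without the 2 Rosa26 libraries under 48%, 0.22 without the libraries with heart markers and 0.174 to 0.298 when each library was left out in turn. Leaving out the libraries with heart markers kept only dNdK 1, over 48%, against Rosa26 3 and 4, both under 48%. That setting thus rests on 1 dNdK library and also compares the 2 kinds of library. After scaling, 10 members lay higher in both dNdK libraries than in all 4 Rosa26 libraries (9.14% of all genes did) and 0 lay lower (8.2%). In plain CPM 6 members lay wholly higher (5.03% of all genes) and 2 wholly lower (13.8%).

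Uqcrb had the largest estimate in aorta. It lies at chr13:66900576-66905350 (Entrez 67530). It was at 1267, 1371, 614 and 768 CPM in Rosa26 1 to 4 and 1836 and 2316 CPM in dNdK 1 and 2, without overlap. Its log2 fold change was 1.18 (SE 0.34, unadjusted p = 0.00734, edgeR adjusted p = 0.757), and 0.84 (edgeR adjusted p = 0.108) without the 2 Rosa26 libraries under 48%, in which its first-strand reads were few. Sdhc was at 1063, 821, 922 and 877 CPM and 1199 and 1307 CPM, also without overlap, with 0.57 (SE 0.22, unadjusted p = 0.0322, edgeR adjusted p = 0.757), and 0.59 without those libraries. Cox5b had 0.71 (SE 0.87, edgeR adjusted p = 0.855), but -0.12 without those 2 libraries and 2.94 (edgeR adjusted p = 0.0167) without Rosa26 1 and 2, the only call of a member in any aorta genotype setting run. That setting called 114 of all 11189 genes higher and 38 lower. The direction of Cox5b thus depended on which control libraries entered.

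In complex I the members with the smallest p in aorta were Ndufa9, a matrix-arm accessory subunit, and Ndufb6, a membrane-arm one. Ndufa9 was at 1045, 762, 778 and 744 CPM in Rosa26 1 to 4 and 1029 and 1069 CPM in dNdK 1 and 2, with 0.46 (SE 0.23, edgeR adjusted p = 0.757); its plain CPM overlapped through Rosa26 1. Ndufb6 was at 419, 469, 231 and 203 CPM and 501 and 422 CPM, with 0.63 (SE 0.34, edgeR adjusted p = 0.757), and with 0.24 without the libraries under 48%. Uqcrfs1 had 0.42 (SE 0.23, edgeR adjusted p = 0.757), Cox6c 0.74 (SE 0.35, edgeR adjusted p = 0.757) and Cox5a 0.20 (SE 0.23, edgeR adjusted p = 0.852). None of these passed the threshold.

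In muscle, 0 of the 46 members were called between dNdK and Rosa26 (edgeR, 3 against 4 libraries), against 0% of 10491 genes, and DESeq2 called 0 members. Estimates lay above 0 for 31 of 46 members, against 53.1% of all genes. The median over members was 0.07, against 0.03 for all genes, and ranged from -0.051 (without dNdK 2) to 0.144 when each library was left out. Without dNdK 3, the muscle library with fat markers, it was 0.14, against -0.002 for all genes. Among the members 1, Ndufs1, had an unadjusted p under 0.05, against 7.55% of all genes. After scaling, 3 members lay higher in all dNdK than in all Rosa26 libraries (2.95% of all genes did) and 1 lay lower (2.98%). In plain CPM 4 members lay wholly higher (5.36% of all genes) and 0 wholly lower (1.31%).

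The gene Ndufs1 (Entrez 227197) lies at chr1:63143592-63176822 in GRCm38.p6. Ndufs1 was at 689, 838, 833 and 968 CPM in muscle Rosa26 1 to 4 and 479.5, 494 and 854 CPM in dNdK 1 to 3, so dNdK 3 overlapped the controls in plain CPM but lay below them after scaling. Its log2 fold change was -0.59 (SE 0.23, unadjusted p = 0.027, edgeR adjusted p = 0.657). In dNdK 2 its first-strand level was 30.4 CPM against 161 and 380 CPM in dNdK 1 and 3 and 232 to 470 CPM in Rosa26, while its second-strand level of 463 CPM lay within the 318 to 497 CPM of the other 6 muscle libraries. The low value of dNdK 2 was thus on 1 strand only. The 3 members higher in every dNdK library after scaling were Ndufb3, Uqcr11 and Uqcrq, none of which passed the test. Ndufb3 had 0.40 (SE 0.18, edgeR adjusted p = 0.656), Uqcr11 0.51 (SE 0.24, edgeR adjusted p = 0.662) and Uqcrq 0.34 (SE 0.19, edgeR adjusted p = 0.701). Uqcr11 was at 637, 587, 671 and 532 CPM in Rosa26 1 to 4 and 1189, 735 and 833 CPM in dNdK 1 to 3. In complex IV, Cox6b1 had 0.12 (SE 0.18, edgeR adjusted p = 0.911) and Cox5b -0.45 (SE 0.81, edgeR adjusted p = 0.928). Cox5b overlapped between the genotypes, each of which held low and high libraries.

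**Figure D4:**
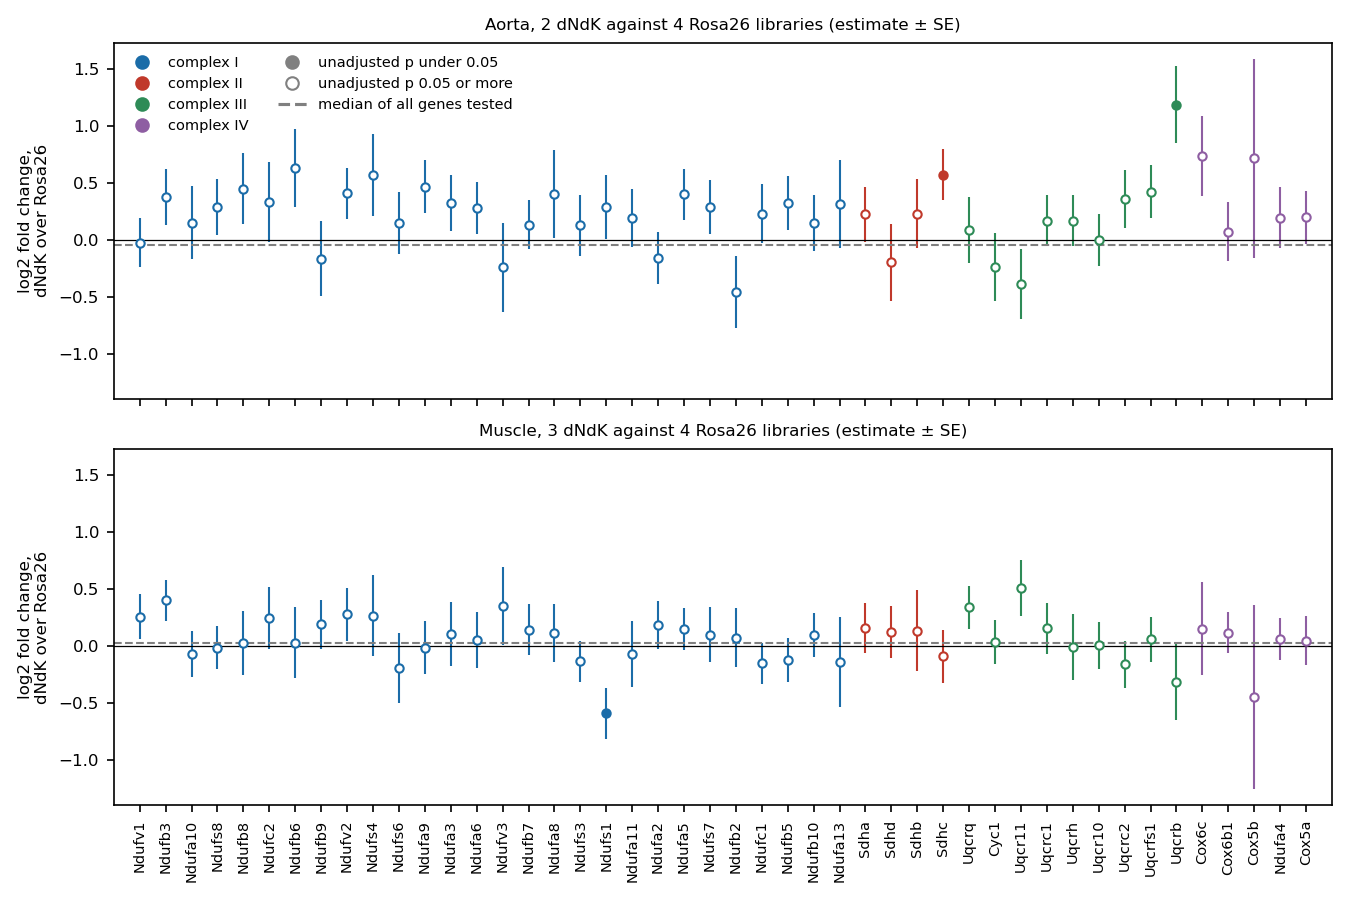
Log2 fold change of dNdK over Rosa26 (TMM scaled, edgeR estimate with its SE) for the 46 members in aorta (top) and muscle (bottom), in the order of the tissue comparison. Filled points had an unadjusted p under 0.05 (Uqcrb and Sdhc in aorta, Ndufs1 in muscle), and none had an adjusted p under 0.05.

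The difference of the 2 genotype effects, aorta minus muscle, was tested as an interaction over all 13 libraries. It called 0 of 46 members in edgeR, against 0% of 12318 genes, and 0 members in DESeq2. With the block on name numbers edgeR called 3 genes higher and 203 lower of 12318 and again 0 members, with Cox5b at 2.20 (edgeR adjusted p = 0.0825). At an unadjusted p under 0.05 there were 2 members, against 8.48% of all genes: Uqcrb (1.52, SE 0.53, unadjusted p = 0.0134, edgeR adjusted p = 0.582) and Ndufs1 (0.90, SE 0.39, unadjusted p = 0.0369, edgeR adjusted p = 0.582). Uqcr11 had -0.87 (SE 0.43, edgeR adjusted p = 0.591), Cox5b 1.17 (SE 1.37, edgeR adjusted p = 0.82), Cox6c 0.60 (SE 0.57, edgeR adjusted p = 0.779) and Ndufb5, a membrane-arm subunit, 0.47 (SE 0.32, edgeR adjusted p = 0.68). Estimates lay above 0 for 35 of 46 members, against 43.8% of all genes. The member median was 0.23 against -0.10 for all genes. It was 0.039 with a covariate for the kind of library (all genes -0.068) and 0.389 with the block on name numbers (-0.113). Without muscle dNdK 3, the muscle library with fat markers, it was 0.14 against 0.016 for all genes.

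Genes that work beside the module were counted from lists of the same pathway in the tissue comparison of Rosa26 mice. Of the citric acid cycle, which feeds NADH and succinate to the chain, 7 of 11 genes tested were called higher in aorta and 0 lower, among them Dlst (log2 fold change 1.45, SE 0.23, edgeR adjusted p = 0.000359) and Dld (1.20, SE 0.22, edgeR adjusted p = 0.000889), subunits of the oxoglutarate dehydrogenase complex. Of ATP synthase, which uses the proton gradient, 1 of 12 was called higher and 3 lower, with Atp5g3, a c-ring gene, at -1.99 (SE 0.205, edgeR adjusted p = 1.89e-05). Of the genes for ubiquinone synthesis and cytochrome c, 4 of 13 were called higher and 1 lower, with the smallest p for Coq6 (2.36, SE 0.18, edgeR adjusted p = 2.84e-06) and Coq10a (-1.63, SE 0.21, edgeR adjusted p = 9.78e-05). Of the assembly factors of complexes I to IV, 8 of 38 were called higher and 9 lower, with Foxred1, a complex I factor, at 2.46 (SE 0.25) and Uqcc2, a complex III factor, at -1.82 (SE 0.26). Of the large subunit of the mitochondrial ribosome 7 of 42 were called higher and 5 lower, of the transcriptional regulators 1 of 14 higher (Ppargc1b, 1.24, SE 0.24) and 2 lower, and of outer membrane proteins 1 of 5 higher and 2 lower (Vdac1, the main porin, -3.01, SE 0.21). All of these counts stand beside 31% of all genes called higher and 27.5% called lower. In the genotype comparisons and in the interaction, edgeR called 0 genes of each of these 7 lists. In the interaction, the share of estimates above 0 ran from 7 of 12 (ATP synthase) to 10 of 11 (citric acid cycle). At an unadjusted p under 0.05 the 7 lists together held 7 of 135 genes in aorta (against 5.98% of all genes), 2 in muscle (7.55%) and 9 in the interaction (8.48%). In aorta between genotypes, 11 of 11 citric acid cycle estimates lay above 0 (median 0.193). So did 32 of 42 ribosomal ones (0.206), 27 of 38 of assembly factors (0.178) and 7 of 12 of ATP synthase (0.231). The outer membrane had 4 of 5 (0.274), ubiquinone and cytochrome c 9 of 13 (0.103) and regulators 7 of 14 (-0.023). The upward skew was thus not particular to complexes I to IV.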

How the data were processed

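Aorta and gastrocnemius RNA of 13 libraries was analysed from the deposited counts of reads per gene on each strand, which the authors made by aligning reads with STAR 2.5.2b to mm10 (GRCm38.p6), per the submitters' processing notes. The notes also name edgeR 3.28.1 and limma 3.42.2. The deposited tables also hold a count made without regard to strand, which was used for the main results. In each table, 4 lines that name no gene were left out. Library totals were 3919526 to 13683952. Genes were filtered with filterByExpr (min.count 10, min.total.count 15), scaled with TMM and tested with the quasi-likelihood test of edgeR 4.0.16 in R 4.3.3, with Benjamini-Hochberg adjustment over all genes tested and a threshold of 0.05. Log2 fold changes are TMM scaled and per-library values are plain CPM. SE is the log2 fold change divided by the square root of F. The comparisons were tissue in Rosa26, genotype in each tissue, and the interaction. The fits were also run on simulated counts, drawn independently for each library. These held no strand split, no heart or fat markers in single libraries and no pairing, so the fits were not checked for such features.

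The members and lists were chosen with earlier results of these data known. Named members were all of complex II and the 2 with the smallest p in each other complex and comparison, those with the largest and smallest tissue estimate, and, of each other pathway list, the 2 with the smallest p. Other members called between tissues, and Cox5b and Sdhc elsewhere, were named after their values were seen, as was the promoter choice. The limits for 1-sided genes and the 48% split were also chosen after seeing the data. The replicate numbers of the titles did not pair the samples across tissues (correlations of deviations over 7674 genes from -0.391 to 0.295). The numbers in the deposited names are shared by 4 pairs across tissues (53, 50, 30 and 142), with correlations of 0.347, 0.369, 0.295 and 0.16. The pairs 53, 50 and 30 each lay on the same side of the 48% split, and the pair 142 did not. Animal and run cannot be told apart in these numbers. With them as a block, the tissue comparison kept 13 of 15 calls: Uqcrh (edgeR adjusted p = 0.0529) and Ndufb10 (0.103) were lost. Ndufa13 (edgeR adjusted p = 0.0171) and Sdhb (0.0249) were among those gained. That fit called 15 members higher and 1 lower, beside 3123 and 3063 of all 11058 genes. Alternatives changed the scaling, the filter, the tool (DESeq2 1.42.0, limma 3.58.1 voom), the strand counted, the block and the libraries. Amplicon positions were not used here.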

Additional observations from a re-analysis of the deposited data

Results flagged for a closer look

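Among 38 groups of 4 libraries examined, 5 had 1 library far from the other 3, judged by its gap to the nearest library divided by the range of the group, by Dixon's 95% criterion. Chance sets apart about 1 in 20 groups. Sdha stood apart in both tissues: Rosa26 1 was at 3803 CPM in aorta against 2737 to 2837 CPM (gap ratio 0.906), and Rosa26 1 was at 673 CPM in muscle against 923 to 973 CPM (gap ratio 0.833). These are different name numbers, 53 and 50. Ndufa9 in aorta Rosa26 1 was at 1045 CPM against 745 to 778 CPM (0.889), and Ndufb5 in the same library at 707 CPM against 509 to 518 CPM (0.953). Cox5a in aorta Rosa26 4 was at 1878 CPM against 1763 to 1771 CPM (0.925), in a group whose whole range was narrow.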

How the results depend on the processing

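In the tissue comparison the number of members called, 15, became 24 with upper-quartile scaling, 41 with library size only and 1 in the dNdK libraries, and the median, 0.351, became 0.602, 1.215 and 0.613. Over all genes, calls higher and lower were 4142 and 2404, 6241 and 1303, and 597 and 1204 in these settings, against 3424 and 3038. The median was 0.205 without aorta Rosa26 1 and 2 and 0.216 without the libraries under 48% first-strand reads. Leaving out 1 library gave 11 to 16 calls and medians of 0.24 to 0.448. In aorta between genotypes the median, 0.228, became 0.102 with library size only, where that of all genes moved from -0.046 to -0.181. Without Rosa26 1 and 2, 1 member was called, beside 114 of all 11189 genes higher and 38 lower. The medians without 1 library were 0.174 to 0.298 in aorta, -0.051 to 0.144 in muscle and 0.138 to 0.335 in the interaction, with 0 calls in each. The median of the interaction, 0.225, became -0.019 with library size only, 0.389 with the name number block and 0.039 with the strand covariate. The median of all genes was -0.388, -0.113 and -0.068 in these settings, against -0.102. Placing Ndufa4 in complex I moved the complex IV median from 0.42 to 0.663 between tissues, from 0.197 to 0.455 in aorta and from 0.167 to 0.386 in the interaction. With the replicate block of the title numbers 11 members were called between tissues (median 0.337) and 0 in aorta (0.266), muscle (0.034) and the interaction (0.214). Over all genes that block called 3111 higher and 2766 lower of 11058 between tissues, and 19 and 144 of 11920 in aorta. It called 0 genes in muscle and 0 in the interaction. When 1 of the 2 aorta dNdK libraries was left out, the other was assumed to vary like the rest.

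Some estimates changed sign. Between tissues Sdhc, -0.099, was 0.15 with upper-quartile scaling, 0.764 with library size only, 0.036 with second-strand counts, 0.015 with the name number block and 0.59 in the dNdK libraries. With library size only Ndufa13 was 0.126 and Ndufb10 0.337. Cox5b between tissues was -0.021 with the name number block, -1.829 without aorta Rosa26 1 and 2, and ranged from -0.277 (without aorta Rosa26 replicate 2) to 0.909 (without muscle Rosa26 replicate 3) when single libraries were left out; its highest value was 1.609, in the dNdK libraries. In aorta Cox5b was -0.09 with the replicate block, -0.123 with the strand covariate and -0.122 without the libraries under 48%, and Cox5a was -0.119 with first-strand counts. In muscle Cox5b was 0.043 without muscle Rosa26 replicate 3, -1.504 without muscle dNdK replicate 2 and 0.089 with the strand covariate. In the interaction Cox5b was -0.041 with the strand covariate and Cox6c -0.222 with the name number block. The cause was not tested. The other values of single members comprised 809 with the same call and direction, 60 that lost a call and 13 that gained one. The strand covariate, the analyses without the libraries under 48% and those without 1-sided members were chosen after seeing the data. The 6 members with at most 5 counts in a library were not tested, and why they were low was not tested.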
